A study of Mus musculus with 38 samples.

Results

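Fatty acid elongases lengthen acyl chains in the endoplasmic reticulum, and fatty acid desaturases place double bonds in them. The genes described here were the array's gene names Elovl1, Elovl3, Elovl5, Elovl6, Scd1, Scd2, Scd3, Fads1, Fads2 and Fads3, chosen by name, with no threshold on their values. They are 10 of 29411 gene names on the array, and all 10 passed the filter that left 21625 genes for testing.

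The arrays hold RNA from brown fat of C57BL/6J mice that had entered their diet groups when weaned, aged 3 to 4 weeks. LFC mice received a control diet with 10% of calories from fat. HFC mice received a diet with 60% of calories from fat and added sucrose. HF5, HF20 and HF75 mice received that high fat diet with 5, 20 or 75 µg of KAL-1, a botanical formulation. LFC and HFC have 10 arrays each (days 6, 10 and 14 and weeks 0, 3, 6, 9, 12, 15 and 18), and each dose has 6 arrays (weeks 3 to 18). There is 1 array for each group and time point, so the time points serve as replicates. Except in the trend over days, the time point was a block in the fits. There p-values measure how the difference between groups varies from time point to time point. The labels do not say whether an array holds 1 mouse or a pool, nor the sex of the mice, and state that 5 animals of a group were killed at each interval. In bulk tissue, fewer cells of a type and less RNA per cell cannot be told apart.

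A saturated fatty acid made from carbohydrate leaves fatty acid synthase mainly as palmitate. Elovl6 extends palmitate to stearate, and the stearoyl-CoA desaturases Scd1, Scd2 and Scd3 turn palmitate and stearate into palmitoleate and oleate. Elovl3 and Elovl1 make very long saturated and monounsaturated chains, and Elovl3 is known in brown fat for its induction by cold. Elovl5, Fads1 and Fads2 work on polyunsaturated chains, with Fads2 and Fads1 as the delta-6 and delta-5 desaturases. The lipogenic factor SREBP-1c is a known activator of several of these genes.

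Values are log2 processed signal minus the 75th percentile of the same array, and a level of 0 equals that percentile. Levels of different genes come from different probes and are not compared. The 75th percentile ran from 35.1 to 1209 intensity units, and a boundary of 600 separated 11 bright arrays from 27 dim arrays. LFC and HF20 each held 4 of the bright arrays, HFC held 2, HF75 held 1 and HF5 held 0. The classes are wide, so arrays of the same class can still differ in brightness. The HF5 arrays, all dim, ran from 35.8 to 173 units, and the lowest LFC array was at 148. The mean level of the 4 endothelial markers was 0.58 to 3.56 on bright arrays and 3.09 to 4.64 on dim arrays, and that of the 5 erythroid markers was -0.36 to 1.43 and 1.61 to 5.16. The HF75 array of Week 3 stood apart in its brown fat markers. Ucp1, which defines brown adipocytes, was at -3.07 there and at 3.38 to 8.57 on the other 37 arrays. Cidea, Cox7a1, Cox8b and Ppargc1a were also below all other arrays, while Adrb3, Ebf2, Prdm16 and Dio2 were within their range. The array's mean level of the 5 white adipocyte markers was -1.13, against -6.00 to -2.27 elsewhere. Of these, Lep at -1.44 and Retn at 1.76 were within their range on the other arrays (-6.24 to 1.83 and -2.83 to 3.88). Hoxc8, Hoxc9 and Tcf21 were well above background on only 4, 7 and 5 of the 38 arrays. Differences of the members in HF75 are given with and without the HF75 array of Week 3.

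On the high fat diet without KAL-1, Elovl6, Scd1, Scd2 and Elovl3 were lower than in LFC at nearly every time point, while Scd3 and Elovl1 were not. The first 4 differed from LFC by -2.91, -2.09, -2.04 and -2.98 log2. None of the 10 genes passed the adjusted threshold in this comparison, where limma called 0 of 21625 genes (0%). At an unadjusted p under 0.05 there were 5 of the 10 genes, all lower in HFC, against 6.82% of all genes. The median difference of the 10 genes was -0.57, and that of all genes tested was 0.05.

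Scd1 is the main stearoyl-CoA desaturase of adipose tissue and lies at chr19:44394450-44407709 in GRCm38.p6. Its level in LFC had a lowest value of 4.90, a median of 5.90 and a highest value of 6.58, and in HFC these were 2.38, 3.56 and 5.54. The HFC arrays lay below the LFC arrays at 9 of 10 time points, and the groups overlapped only through the HFC array of Day 10. The difference of -2.09 (SE 0.34, 95% interval -2.84 to -1.34) is a 4.25-fold lower signal, with an adjusted p of 0.278. Without Day 10, the only time point with HFC above LFC, the difference was -2.36 and Scd1 passed (adjusted p 0.0393, limma). In that fit 2 of 21625 genes passed. Of 26 alternatives, Scd1 passed in 2, this one and array weights. The HFC array of that day was bright and the LFC array dim. Scd1 was saturated on 4 of the 10 LFC arrays and on no HFC array, so those LFC levels are lower bounds.

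Scd2, a desaturase expressed in many tissues, lies beside Scd1 at chr19:44293676-44306864. It ran from 1.82 to 5.99 in LFC with a median of 3.24, and from 1.01 to 2.44 in HFC with a median of 1.44. The highest LFC values, 5.52, 5.99, 4.33 and 4.37, were those of Weeks 0, 3, 9 and 12, which are the 4 bright LFC arrays. HFC was lower at 9 of 10 time points, and at Week 18 the groups stood at 1.88 in HFC and 1.82 in LFC. The difference was -2.04 (SE 0.47, 95% interval -3.06 to -1.02, adjusted p 0.652).

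Scd3, at chr19:44203288-44244016, is a desaturase known mainly from skin and sebaceous glands. Its level was -6.11 to -0.06 in LFC with a median of -3.39, and -5.44 to 3.05 in HFC with a median of -2.74. HFC was higher at 5 of 10 time points and lower at the other 5, so the groups overlapped throughout. The difference was 0.82 (SE 0.54, 95% interval -0.37 to 2.004). Scd3 was well above background on 32 of the 38 arrays.

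Elovl6 lies at chr3:129532386-129638495. Its LFC levels had a lowest value of 1.36, a median of 2.24 and a highest value of 6.65, and its HFC levels were -0.22, 0.82 and 3.71. HFC was below LFC at the 9 time points compared. The spot on the HFC array of Day 10 carried an outlier flag and was left out. That spot, at 2.43, lay above the LFC level of 1.78 on that day, and with it kept the difference was -2.55. The fitted difference was -2.91 (SE 0.60, 95% interval -4.23 to -1.59, adjusted p 0.652). Elovl6 was saturated on the LFC arrays of Weeks 0 and 9.

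Elovl6 moved with array brightness. In LFC it was at 5.77 to 6.65 on the 4 bright arrays and at 1.36 to 2.34 on the 6 dim arrays. In HFC it was at 3.71 on the bright array that gave a value and at -0.22 to 1.13 on the 8 dim arrays. Within a brightness class the diet groups still did not overlap, and at the 6 time points where both arrays were of the same class HFC was lower at 6 of 6, by a mean of -1.66. At the other 3 time points the mean difference was -5.40. Across the 37 arrays with a value Elovl6 correlated with the mean of the endothelial markers at r = -0.88, as a description of arrays that share brightness. The part of brightness and of cell make-up in the size of the diet difference was not tested.

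**Figure D1:**
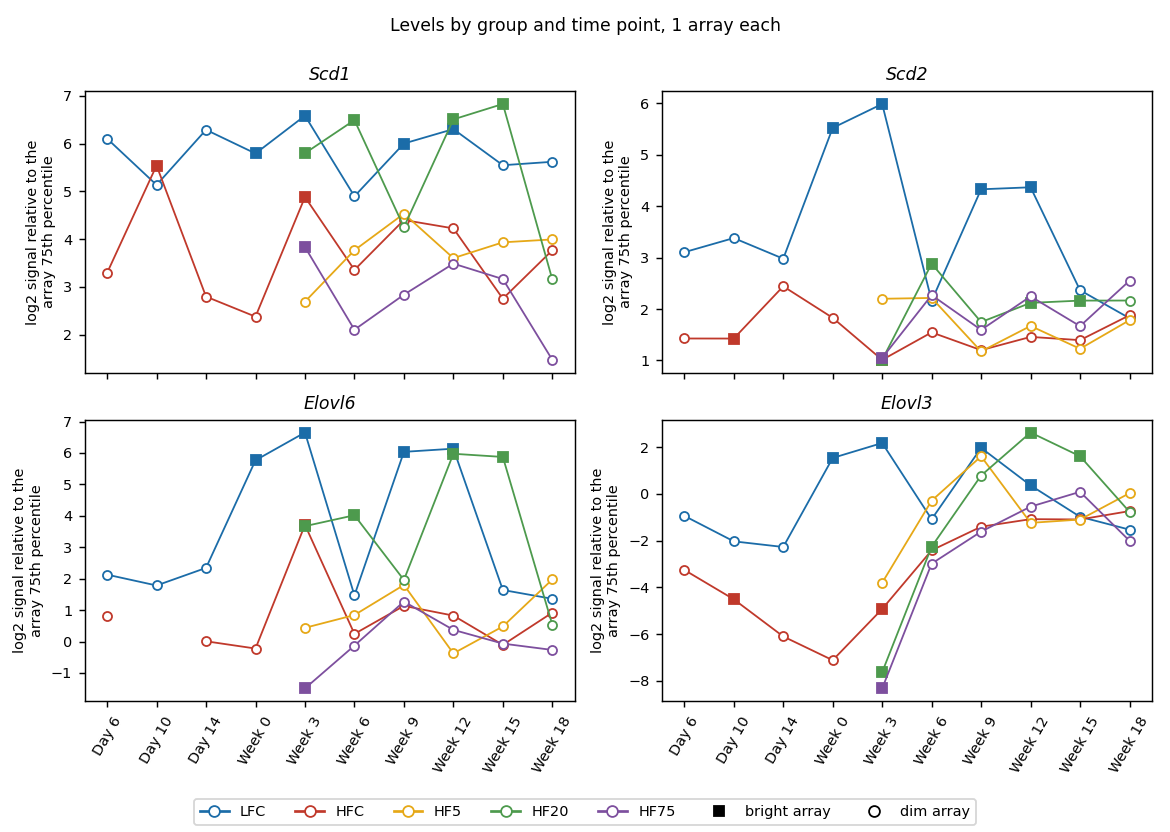
Level of Scd1, Scd2, Elovl6 and Elovl3 (log2 signal relative to the 75th percentile of the array) at each time point, 1 array per point, lines joining the arrays of a group. Filled squares are bright arrays and open circles dim arrays. The LFC points lie above the HFC points at 9 of 10 time points for Scd1, Scd2 and Elovl3 and at 9 of 9 for Elovl6.

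Scd1 and Scd2 were compared within and across brightness classes too. Over the 6 time points with both arrays in a class the mean HFC minus LFC difference of Scd1 was -2.36 (SD 0.78), lower at 6 of 6. Over the 4 mixed time points it was -1.67 (SD 1.58). For Scd2 the means were -1.45 (SD 1.82, lower at 5 of 6) and -2.92 (SD 0.72, lower at 4 of 4). In a fit with a term for brightness, the differences were -1.90 for Scd1, -1.84 for Scd2, -1.66 for Elovl6 and -2.71 for Elovl3, with adjusted p from 0.244 to 0.659.

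Elovl3 lies at chr19:46131897-46135694. Its LFC levels ran from -2.27 to 2.18 with a median of -0.95, and its HFC levels from -7.11 to -0.73 with a median of -2.83. The HFC arrays of Day 14 and Week 0, at -6.10 and -7.11, were not well above background and give only a bound. The diet difference was -2.98 (SE 0.83, 95% interval -4.80 to -1.17, adjusted p 0.652) and lower at 9 of 10 time points. It was -8.65 at Week 0, where the LFC array was bright, and 0.79 at Week 18, the exception. The product of diet and day, which asks whether the difference moved over the course, was 0.28 log2 per 7 days (SE 0.10, adjusted p 0.212).

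Scd3 was the other member with an unadjusted p under 0.05 for the product of diet and day, at 0.21 log2 per 7 days (SE 0.05, adjusted p 0.107). Its HFC minus LFC difference was below 0 at Days 6, 10 and 14 and Weeks 3 and 6, and above 0 at Weeks 0, 9, 12, 15 and 18, with 3.44 at Week 12 and 3.11 at Week 18. The HFC array of Week 18 held its highest level of all 38 arrays. It did pass once brightness was a term (0.18, adjusted p 0.0388), where 663 of the 21625 genes passed, and without Week 0 (0.25, adjusted p 0.0413), where 370 passed. With all time points and no such term 0% of genes passed and 15.2% had an unadjusted p under 0.05. Scd3 correlated at r = 0.82 over 38 arrays with the mean of the 8 skin markers, and its time point differences with theirs at r = 0.92 over 10 time points. Of these markers, Krt1 and Mc5r were well above background on 0 and Dsp on 2 of the 38 arrays. The list's mean level was -6.49 to -5.72 on bright arrays and -5.98 to -2.85 on dim arrays. The skin list's summed signal was 0.198 to 0.782 times the 75th percentile in LFC and 0.161 to 1.35 times in HFC, highest on the same HFC array of Week 18, and 4 of its 5 tested genes had a product of diet and day above 0 at an unadjusted p under 0.05. The part of skin cells, of background signal and of brightness in this result was not tested. The other 8 members had products from -0.01 to 0.07.

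The trend over days on either diet gave the same pair of members at an unadjusted p under 0.05, where the share of all genes was 21%. The slope was 0.17 log2 per 7 days for Scd3 (SE 0.06, adjusted p 0.0995) and 0.14 for Elovl3 (SE 0.06, adjusted p 0.177). No member passed the adjusted threshold, and 1.41% of all genes did. With the scan day in the model the slope of Elovl3 was -0.13. The other 8 members had slopes from -0.04 to 0.05.

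The remaining elongases and the front-end desaturases had intervals that include 0. Elovl1 (chr4:118426874-118432953) differed by 0.40 (95% interval -0.32 to 1.12) and Elovl5 (chr9:77917365-77984519) by -0.43 (-0.91 to 0.05). Fads1 and Fads2, which lie side by side at chr19:10182877-10196874 and chr19:10062765-10101503, differed by -0.02 (-0.54 to 0.51) and -0.41 (-0.86 to 0.04). These intervals leave out a difference of the size seen for Scd1, but they include 0 and do not show equal levels. Fads2 was lower in HFC at 6 of 6 time points with both arrays in a class, by -0.92 to -0.04, and at 2 of the 4 mixed ones. In the fit with a brightness term Elovl5 stood at -0.57 (-0.96 to -0.17, adjusted p 0.651) and Fads2 at -0.53 (-0.89 to -0.17, adjusted p 0.651), with intervals below 0.

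Fads3, a desaturase of the same chromosome 19 cluster (chr19:10040855-10060113), had an unadjusted p under 0.05 in HFC against LFC. Its LFC levels ran from 0.88 to 3.44 with a median of 2.03 and its HFC levels from -1.09 to 2.29 with a median of 1.70. The ranges overlapped, and HFC was lower at 8 of 9 time points. The difference was -0.71 (SE 0.27, adjusted p 0.652). Its spot on the HFC array of Day 10 was also left out for an outlier flag, and with it kept the difference was -0.74. The second Fads3 probe gave -0.69, although the probes correlated at only r = 0.41 over arrays. The probes of Elovl5 correlated at r = 0.92 and gave -0.43 and -0.29.

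A share of 1.66% of the 20712 genes with a value at every time point were lower in HFC at 9 or more of 10 time points, and 3 of the 8 members with such values were so, Scd1, Scd2 and Elovl3. Elovl6 and Fads3 lack a Day 10 value and are outside this count. At 10 of 10 time points it was 0.159% of genes and 0 members.

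**Figure D2:**
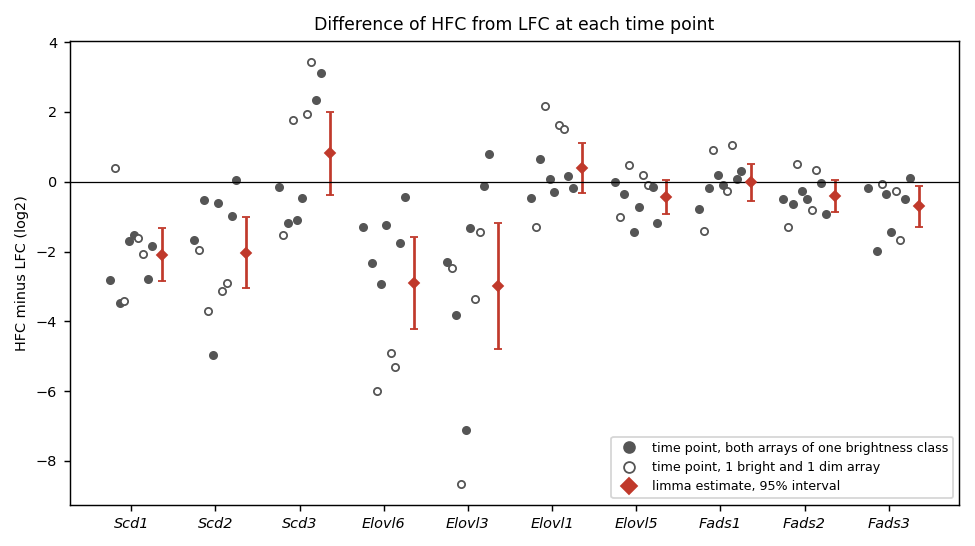
HFC minus LFC (log2) for each of the 10 genes. Circles are time points in order from Day 6 to Week 18, filled where both arrays were of the same brightness class and open where 1 was bright and 1 dim. Red diamonds are the limma estimates with 95% intervals. Scd1, Scd2, Elovl6, Elovl3 and Fads3 have intervals below 0, and the other 5 intervals include 0.

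Promoter sequence was taken from RefSeq (GRCm38.p6) for the 6 genes with an entry, out of 10. Elovl6, lower in HFC at 9 of 9 time points, and Elovl5, lower at 7 of 10, are shown to set a member with a large diet difference beside an elongase of the polyunsaturated branch. Each is the 250 bases before the annotated start, plus strand, written 5′ to 3′, with capitals at matches of the motifs searched on both strands.
Elovl6, chr3:129532136-129532385: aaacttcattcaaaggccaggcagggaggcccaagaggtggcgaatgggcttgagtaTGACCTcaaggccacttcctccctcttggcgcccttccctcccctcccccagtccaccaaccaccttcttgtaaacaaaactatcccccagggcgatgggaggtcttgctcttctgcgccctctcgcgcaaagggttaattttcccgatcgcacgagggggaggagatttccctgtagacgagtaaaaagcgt
Elovl5, chr9:77917115-77917364: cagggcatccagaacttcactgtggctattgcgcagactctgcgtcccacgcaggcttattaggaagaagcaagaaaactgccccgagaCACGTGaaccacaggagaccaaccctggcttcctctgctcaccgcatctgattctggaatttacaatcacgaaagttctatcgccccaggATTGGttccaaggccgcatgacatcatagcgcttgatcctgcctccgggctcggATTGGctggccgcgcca
The motifs were the sterol response element TCACNCCAC, CCAAT, the GC box GGGCGG, the E-box CACGTG and the nuclear receptor half-site AGGTCA. They occur in 1.05%, 33.8%, 32.7%, 6.02% and 14.0% of the same windows of 32851 promoters. Elovl6 holds 1 half-site, on the opposite strand, and none of the others. Elovl5 holds 1 E-box and 2 CCAAT matches, both on the opposite strand. The sterol response element letters were in none of the windows of the 6 members with an entry. Elovl3, Fads1, Scd1 and Scd2 had no entry and were not searched.

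The genes listed as substrate supply also lay on the lower side of LFC. From a list of 45 genes around elongation and desaturation 41 were tested. All 8 genes of substrate supply were lower in HFC, with a median difference of -1.85. At an unadjusted p under 0.05 there were 5 of them, against 6.82% of all genes in either direction. LFC held 4 bright arrays and HFC 2, and the part of brightness in these differences was not tested. The 3 with the smallest p of the whole list were Me1 (malic enzyme, a source of NADPH) at -2.14 (SE 0.45), Acly (ATP citrate lyase) at -2.04 (SE 0.43) and Acss2 (acetyl-CoA synthetase) at -2.91 (SE 0.65). All had an adjusted p of 0.652. Me1 was lower at 10 of 10 time points, Acly at 9 of 10 and Acss2 at 8 of 9.

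The other sub-lists showed smaller medians. In the elongation cycle, 6 of 7 genes were lower with a median of -0.56 and 0 at an unadjusted p under 0.05. Of 6 electron carriers and other desaturases 4 were lower, with 1 at an unadjusted p under 0.05, the electron carrier Cyb5b at -0.86. Of 9 genes of acyl-CoA activation and use 7 were lower, 1 of them at an unadjusted p under 0.05. Of 11 control genes 11 were lower, with a median of -0.19 and 1 at an unadjusted p under 0.05, the SREBP retention factor Insig1 at -1.13. Of the 9 brown adipocyte markers 3 were higher in HFC at an unadjusted p under 0.05 and 0 lower, with a median of 0.44, and their summed signal was 133 to 512 times the 75th percentile in LFC and 159 to 1029 times in HFC. Of the 9 lymphocyte markers 7 were higher in HFC at an unadjusted p under 0.05, with a median of 1.09, and their summed signal was 0.285 to 1.76 times the 75th percentile in LFC and 0.530 to 3.69 times in HFC. Their part in the members' differences was not tested.

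Over weeks 3 to 18, in the fit that shares 30 arrays with the doses, HFC against LFC called 0 members and 0.00925% of all genes. At an unadjusted p under 0.05 there were 3 members, against 13.9% of all genes. Scd2 differed by -2.09 (SE 0.52), Scd1 by -1.93 (SE 0.50) and Elovl6 by -2.76 (SE 0.95), each with an adjusted p of 0.352. Elovl3 stood at -2.10, Scd3 at 1.54, Fads3 at -0.69, Elovl5 at -0.57, Elovl1 at 0.48, Fads2 at -0.36 and Fads1 at 0.21, with intervals that include 0.

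The dose comparisons asked whether KAL-1 moved these genes on the high fat diet. The HF20 means of Elovl6 and Scd1 lay nearer to the LFC means than to the HFC means, and the HF75 mean of Scd1 lay below that of HFC. Against HFC limma called no gene at any dose (0% each). At an unadjusted p under 0.05 there were 0 members in HF5, 3 in HF20 and 2 in HF75, against 5.52%, 32.8% and 9.26% of all genes. The share of members was near that of all genes in HF20. The median difference from HFC over the members was 0.25 in HF5, 0.042 in HF20 and -0.09 in HF75, and over all genes tested it was 0.016, -0.18 and -0.032.

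In HF5 no member had an unadjusted p under 0.05 against HFC, and the intervals were wide. Scd1 had a lowest value of 2.69, a median of 3.85 and a highest value of 4.53, and Elovl6 of -0.38, 0.66 and 1.97. HF5 minus HFC was -0.14 for Scd1 (95% interval -1.19 to 0.90), 0.30 for Scd2 (-0.77 to 1.37) and -0.26 for Elovl6 (-2.23 to 1.71). The signs of Scd1 and Elovl6 turned without Week 3, when the HFC array was bright and the HF5 array dim, to 0.27 and 0.34. Elovl5 was higher in HF5 at 6 of 6 time points, by 0.64 (95% interval -0.04 to 1.32). Elovl3 stood at 1.14 (-1.06 to 3.34), Elovl1 at 0.55 (-0.22 to 1.31), Scd3 at -0.92 (-2.92 to 1.08), Fads1 at -0.33, Fads2 at 0.20 and Fads3 at 0.39.

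In HF20 the Scd1 levels had a lowest value of 3.16, a median of 6.14 and a highest value of 6.83, and the arrays of Weeks 6 and 15 were saturated. Those of Elovl6 were 0.54, 3.85 and 5.98, and those of Scd3 were -5.90, -4.49 and -2.01. HF20 minus HFC was 1.61 for Scd1 (SE 0.50, adjusted p 0.121), 2.55 for Elovl6 (SE 0.95, adjusted p 0.122) and -2.54 for Scd3 (SE 0.97, adjusted p 0.122). Without Week 3 all of these 3 passed (1.74, 3.07 and -3.29, adjusted p 0.0461, 0.0469 and 0.0453), as did 3344 genes in all.

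The HF20 values split by brightness. Scd1 was at 5.80 to 6.83 on the 4 bright HF20 arrays and at 3.16 and 4.25 on the dim ones, and Elovl6 at 3.67 to 5.98 and at 0.54 and 1.96. At the 3 time points where the HF20 and HFC arrays were of the same class the mean difference was 0.05 for Scd1 (SD 0.78) and 0.13 for Elovl6 (SD 0.62). At the 3 mixed time points it was 3.16 (SD 0.90) and 4.97 (SD 1.11). In the fit with a brightness term the differences were 0.72 (95% interval -0.15 to 1.60) and 0.74 (-0.79 to 2.27), with an adjusted p of 0.975 for both. Scd3 stood at -1.21 there (-3.17 to 0.75, adjusted p 0.975). Endothelial markers were lower in HF20 than in HFC in 2 of 4 genes at an unadjusted p under 0.05, with a median of -1.48 and a summed signal of 13.2 to 214 times the 75th percentile in HF20 and 25.9 to 165 times in HFC. Erythroid markers were lower in 3 of 5 genes (median -1.57), with a summed signal of 127 to 3087 times in HF20 and 162 to 2902 times in HFC. Lymphocyte markers were lower in 3 of 9 genes (median -0.75), with 0.390 to 3.66 times in HF20. The share of all genes at that threshold in HF20 against HFC was 32.8%, in either direction, near that of the lymphocyte markers. The part of cell make-up in these differences was not tested.

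The other members in HF20 had intervals that include 0. Scd2 was higher than in HFC at 6 of 6 time points, by 0.60 (95% interval -0.47 to 1.67). Elovl3 differed by 1.003 (-1.20 to 3.20), with HF20 values from -7.63 at Week 3 to 2.63 at Week 12, the first of which was not well above background. Elovl1 differed by -0.63 (-1.39 to 0.13), Elovl5 by -0.37 (-1.05 to 0.31), Fads1 by -0.51 (-1.18 to 0.17), Fads2 by -0.27 and Fads3 by 0.35. With that term Elovl1 stood at 0.068, Elovl5 at 0.11 and Fads2 at 0.00087.

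In HF75 Scd1 had a lowest value of 1.48, a median of 3.00 and a highest value of 3.83. HF75 minus HFC was -1.08 (SE 0.50, 95% interval -2.12 to -0.04, adjusted p 0.538), lower at 5 of 6 time points. Leaving out the Week 3 array of HF75 gave -1.23 (adjusted p 0.803). At all 6 time points the HF75 and HFC arrays were of the same brightness class.

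Elovl5, which elongates polyunsaturated chains, went the other way in HF75. Its levels were 3.19, 4.25 and 4.97 at the lowest, median and highest, and the difference from HFC was 0.95 (SE 0.33, adjusted p 0.531), with HF75 above HFC at 5 of the 6 time points. Leaving out the Week 3 array of HF75 gave 0.95 (SE 0.36, adjusted p 0.803), and with normexp background correction 0.40. The remaining members did not reach an unadjusted p under 0.05. Elovl6 stood at -1.17, and at -0.64 without the Week 3 array, where it was at -1.49 against 3.71 in HFC. Elovl3 stood at -0.62 and, without that array, at -0.0029. Its value on that array was not well above background and gives only a bound. Scd3 stood at -1.27, Elovl1 at 0.60, Scd2 at 0.48 (higher at 6 of 6 time points), Fads1 at -0.44, Fads2 at 0.35 and Fads3 at 0.26. Without the array these were -0.99, 0.59, 0.73, -0.45, 0.21 and -0.092.

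**Figure D3:**
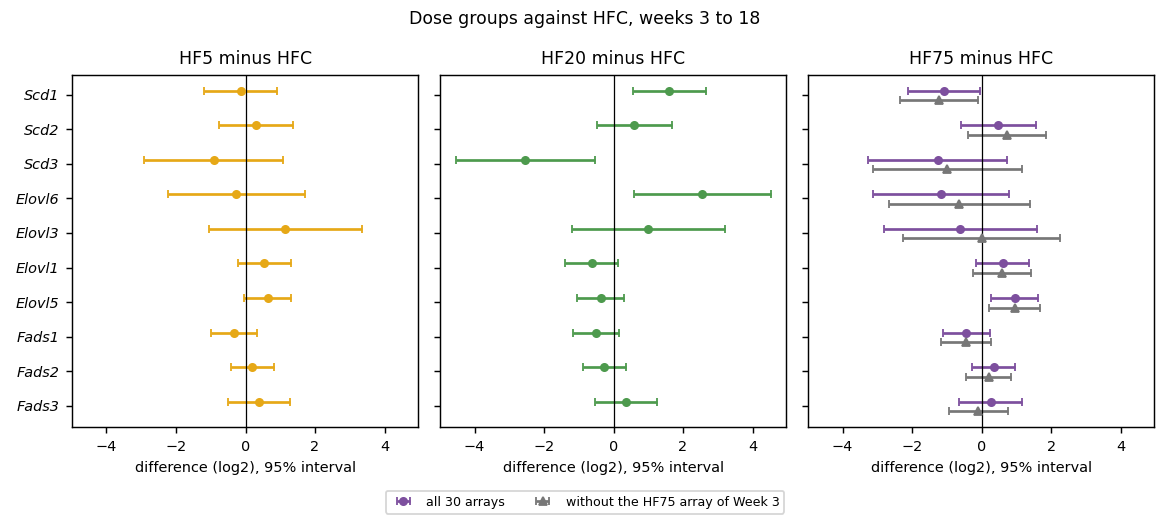
Difference of HF5, HF20 and HF75 from HFC (log2, x axis) for each gene over weeks 3 to 18, as limma estimates with 95% intervals. Grey triangles in the HF75 panel leave out the HF75 array of Week 3. The HF20 intervals of Scd1 and Elovl6 lie above 0 and that of Scd3 below 0. In HF75 those of Elovl5 and Scd1 leave out 0 on opposite sides.

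The doses were also set against the control diet. These contrasts share the LFC arrays with each other and with the diet contrast. Scd1 in HF75 was the single member called in any of them, at -3.01 (SE 0.50, adjusted p 0.0311), 8.03-fold lower, with HF75 below LFC at 6 of 6 time points and 0.0277% of all genes called. Scd1 was saturated on 3 of the 6 LFC arrays used here, so the LFC level and the size of this difference are lower bounds. The call was lost without the HF75 array of Week 3 (-3.16, adjusted p 0.0700) and without any of the 6 time points in turn (-3.13 to -2.78). At the 4 time points where both arrays were of the same brightness class the mean difference was -3.02 (SD 0.77).

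At an unadjusted p under 0.05 there were 5 members in HF75 against LFC, against 18.7% of all genes. Elovl6 stood at -3.93 (SE 0.95), Elovl3 at -2.72 (SE 1.06), Scd2 at -1.61 (SE 0.52) and Elovl1 at 1.09 (SE 0.37), and without the Week 3 array at -3.40, -2.10, -1.36 and 1.07. With a brightness term they stood at -2.73, -2.43, -1.32 and 0.63. Elovl5 stood at 0.38, Fads3 at -0.43, Scd3 at 0.28, Fads1 at -0.23 and Fads2 at -0.011, and without the array at 0.38, -0.78, 0.56, -0.24 and -0.15. In HF5 there were 4 members, against 13% of all genes, with 0.00925% called. These were Elovl6 at -3.02 (SE 0.95), Scd1 at -2.07 (SE 0.50), Scd2 at -1.79 (SE 0.52) and Elovl1 at 1.03 (SE 0.37). With a brightness term these were -1.22, -1.19, -1.36 and 0.34, and the intervals of Elovl6 and Elovl1 then included 0. Elovl6 differed by a mean of -0.39 over the 3 pairs of the same brightness class and by -5.66 over the 3 mixed pairs. Pairs of the same class are not matched in brightness. Elovl3 stood at -0.95, Scd3 at 0.63, Fads3 at -0.30, Fads2 at -0.16, Fads1 at -0.12 and Elovl5 at 0.069. In HF20 there were 3 members, against 5.01% of all genes, with 0% called. These were Scd2 at -1.49 (SE 0.52), Elovl5 at -0.95 (SE 0.33) and Fads2 at -0.63 (SE 0.30), and Scd1 in HF20 stood at -0.32 (95% interval -1.36 to 0.72). Elovl3 stood at -1.09, Scd3 at -0.99, Fads3 at -0.34, Fads1 at -0.29, Elovl6 at -0.21 and Elovl1 at -0.14. With a brightness term Scd2, Elovl5 and Fads2 in HF20 stood at -1.64, -0.79 and -0.54, and the interval of Fads2 then included 0. Scd1 stood at -0.61 and Elovl6 at -0.81 there. Over the 3 pairs of the same brightness class the means were -1.01 (SD 1.35) for Scd1 and -1.32 (SD 1.47) for Elovl6. Over the 3 mixed pairs they were 0.37 (SD 1.85) and 0.90 (SD 4.39).

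The Scd1 means over weeks 3 to 18 were LFC at 5.82 (SD 0.60), HF20 at 5.50 (SD 1.48), HFC at 3.90 (SD 0.77), HF5 at 3.75 (SD 0.61) and HF75 at 2.82 (SD 0.88), n = 6 each. Scd1 was saturated on 3 of these LFC and 2 of these HF20 arrays, so both means are lower bounds and their order is not determined. The neighbours LFC and HF20, HF20 and HFC, and HFC and HF5 did not pass the adjusted threshold, and HF5 and HF75 were not set against each other as a pair. For Elovl6 it was LFC at 3.88 (SD 2.63), HF20 at 3.67 (SD 2.15), HFC at 1.12 (SD 1.35), HF5 at 0.86 (SD 0.89) and HF75 at -0.05 (SD 0.90). Elovl6 was saturated on 1 of these LFC arrays. These means mix bright and dim arrays in unlike numbers. On the dim arrays of all time points Elovl6 had means of 1.79 in LFC (n = 6), 1.25 in HF20 (n = 2), 0.45 in HFC (n = 8), 0.86 in HF5 (n = 6) and 0.24 in HF75 (n = 5). For Scd2 LFC stood at 3.51 (SD 1.65), and the 4 high fat groups lay together between 1.42 and 2.02.

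The moderated F test over HF5, HF20 and HF75 called 4 members, Scd1, Elovl5, Elovl6 and Elovl1 (adjusted p 0.0338, 0.0348, 0.0364 and 0.0422), against 13.7% of all genes. The other 6 members had adjusted p values from 0.239 to 0.969. In Scd1 and Elovl6 HF20 was highest and HF75 lowest. In Elovl1 HF20 was lowest, at 2.18 (SD 0.98) against 3.36 (SD 0.39) in HF5 and 3.41 (SD 0.62) in HF75. In Elovl5 it was also lowest, at 2.88 (SD 0.77) against 3.90 (SD 0.23) and 4.21 (SD 0.61). The call of each was lost under a brightness term (adjusted p 0.223, 0.381, 0.361 and 0.632). It was also lost without the HF75 array of Week 3, narrowly (adjusted p 0.0635, 0.0636, 0.0677 and 0.0697).

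**Figure D4:**
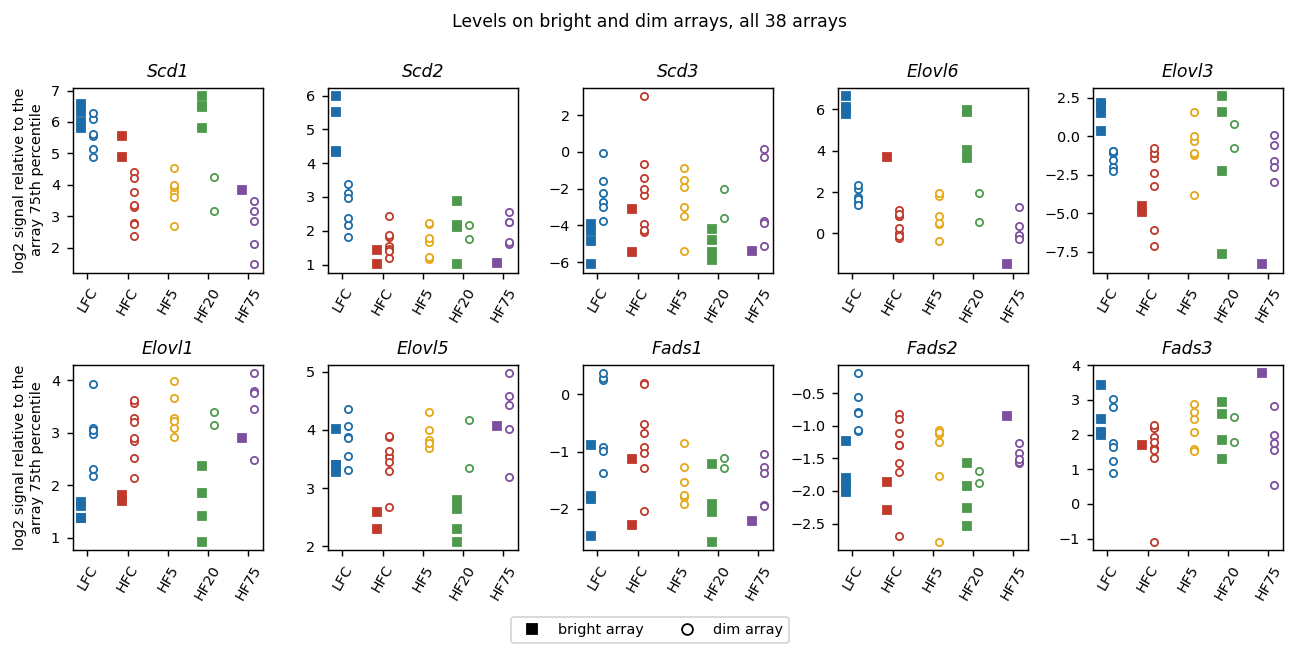
Levels of the 10 genes (log2 signal relative to the 75th percentile of the array) by group, with bright arrays as filled squares and dim arrays as open circles, 38 arrays each and 37 for Elovl6 and Fads3. Elovl6 is higher and Elovl1 lower on bright arrays of LFC, HFC and HF20, while Fads3 overlaps between the classes in LFC and HF20.

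Around the members, no gene of the pathway list was called at any dose against HFC. In HF5 Cyb5r3, the reductase that feeds electrons to the desaturases, was the only gene of the 41 at an unadjusted p under 0.05 (0.66, SE 0.25, adjusted p 0.814), followed by Cyb5r1 at 0.53 and Acsl4 at 0.45. In HF20 20 genes were higher and 1 lower at an unadjusted p under 0.05, against 32.8% of all genes in either direction. Among them were Cyb5a (0.95, SE 0.29) and Hacd3 (0.86, SE 0.28), each with an adjusted p of 0.121. The HF20 and HFC arrays shared a brightness class at 3 of 6 time points. The part of brightness in the HF20 differences of this list was not tested. Substrate supply had a median of 1.53 in HF20 and -1.20 in HF75, and of -0.86 in HF75 without the Week 3 array. In HF75 the smallest p were those of Thrsp (-1.50, SE 0.46) and Fasn, the fatty acid synthase (-1.21, SE 0.37), lower at 6 of 6 time points, and Acsl4 (0.80, SE 0.25), each with an adjusted p of 0.531. Without the Week 3 array they stood at -1.03, -1.03 and 0.74 (adjusted p 0.803). Thrsp was saturated on 9 and Fasn on 11 of the 38 arrays. Brown adipocyte markers were lower in HF75 than in HFC in 2 of 9 genes and higher in HF20 in 3 of 9 at an unadjusted p under 0.05, with medians of -1.44 and 0.33. The shares of all genes at that threshold, in either direction, were 9.26% in HF75 and 32.8% in HF20. Without the Week 3 array 0 of 9 markers were lower in HF75 at that threshold, with a median of -0.56. Their summed signal was 10.9 to 458 times the 75th percentile in HF75, lowest at Week 3, and 363 to 1067 times in HF20. The part of brown adipocyte content in the members' values was not tested.

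The members were also set against each other. Over 45 pairs the correlation of levels across arrays ran from -0.80 to 0.83 with a median of 0.03. The highest was that of Elovl6 and Scd1 (r = 0.83 over 37 arrays, 0.68 within brightness classes), followed by the neighbours Fads1 and Fads2 (r = 0.66 over 38 arrays, 0.58 within classes). The lowest was that of Elovl1 and Elovl6 (r = -0.80, and -0.50 within classes). The points share array brightness, so these are descriptions.

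The genes most like each member over the arrays were named by the highest correlation. For Elovl6 they were Acss2 (r = 0.98, and 0.95 within classes), Gm11295 (0.98) and Acaca (0.97), and for Scd1 LOC677051 (0.87), Me1 (0.85) and LOC677317 (0.85). For Scd2 they were Sqle (0.82), Acsl5 (0.80) and LOC674674 (0.79), and for Scd3 Avpr1b (0.97), Amigo1 (0.96) and Gm3162 (0.96). Elovl3 was most like Gys2, the liver-type glycogen synthase (0.81, and 0.88 within classes), Adprhl1 (0.74) and Gm5069 (0.73). Elovl1 was most like Sh3bgrl3 (0.94), Ltbp4 (0.93) and Aplp1 (0.93), and Elovl5 like Ttbk2 (0.88), Rnf215 (0.87) and Abi1 (0.86). For Fads1, Fads2 and Fads3 no gene went above 0.80, and the first named were Nbeal2 (0.80), Lbp (0.77) and Gm4167 (0.72).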

How the data were processed

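Total RNA of brown adipose tissue was labelled with Cy3 and hybridised to a 1-colour Agilent mouse array, per the labels. Each deposited scanner file gives a brightness per spot, in intensity units, which the authors extracted with Agilent Feature Extraction (10.5.1.1 in the file headers, 9.1 in the submitters' processing notes), with background removed and no scaling across arrays. A deposited series table gives log2 ratios, which the authors formed against LFC at each time point. Its columns correlated at 0.994 to 1.000 with the scanner values, but at -0.0046 to 0.0022 for Week 15, where the values fit only in array order (0.982 to 0.998). It served as an alternative. The number of unmapped columns was 0.

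Processed signals were log2 transformed, each array was centred on its 75th percentile and spots with outlier flags were left out. The probe with the highest mean stood for each gene name, and a gene was tested if 6 or more of the 38 arrays had it well above background. Groups, time points and doses came from the labels. Weeks count from day 14 of the diet in the study's methods, so days were 14 plus 7 per week. The time point was a block in every comparison but the trend over days, since arrays of a time point share its day. The fits used lmFit and eBayes of limma 3.58.1 in R 4.3.3, with version 1.17.8 of data.table. Two-sided p-values of 21625 genes were adjusted by Benjamini-Hochberg and called below 0.05. On simulated data 78% (HFC against LFC) and 67% (HF20 against HFC) of 200 genes changed by 2 log2 among 21625 were recovered. The changed genes were drawn only from genes under a cap on residual spread. The simulated noise was independent between arrays, with no effect of brightness or time point. These shares therefore do not apply to genes with a larger spread or to values that move with brightness. No arrays were copies of each other (0 pairs). The number of arrays limits the precision.

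The members, the pathway list, the marker lists and the brightness boundary of 600 were chosen with earlier results of these data known. All 10 members are reported in each comparison (by range where a time slope or F test did not pass), of the pathway list the 3 smallest p (1 such gene is not reported here), and for each member the genes with the highest correlation. Marker lists covered brown and white adipocytes, skeletal muscle, macrophages, lymphocytes, erythroid cells, skin and endothelium. Alternatives were quantile normalization, normexp (offset 50), 2 filters, a floor, other probes, the slide, scan day and brightness class, array weights, no block, the table, Day 14 joined with Week 0, all 38 arrays in the fit and leaving out each time point. Keeping flagged spots and leaving out the HF75 array of Week 3 were added after the data were seen.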

Additional observations from a re-analysis of the deposited data

Results flagged for a closer look

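In 50 sets of 6 to 10 arrays (10 genes in 5 groups), 3 held an array far from the others by Dixon's test, where chance flags about 1 set in 20. Elovl3 was at -8.32 on the HF75 array of Week 3, the array whose brown adipocyte markers were low, and the nearest HF75 value was -2.98. The value of -8.32 was not well above background and gives only a bound. Elovl6 was at 3.71 on the HFC array of Week 3, a bright array, and the nearest HFC value was 1.13. The HFC spot of Day 10, also on a bright array, was left out for its outlier flag. With it kept, the nearest value would be 2.43. Fads3 was at -1.09 on the HFC array of Day 14, a dim array, and the nearest HFC value was 1.33. Its flagged HFC spot of Day 10, also left out, was nearer, at 0.60.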

How the results depend on the processing

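Counts of members that passed moved as follows. In HF75 against LFC the 1 call (Scd1) was 0 with the deposited table without Week 15, normexp, the scan day, the floor and the slide as a block, without the HF75 array of Week 3, and without any time point (0 to 0). Restricting probes to those saturated on no array leaves Scd1 and Elovl6 untested, so it gave 0 there and 2 in differences among doses by construction. In differences among doses the 4 calls were 0 with the brightness class, the table without Week 15, no filter, normexp and without the HF75 array of Week 3, and 0 to 4 without a time point. Array weights gave 3 calls in HF20 against HFC, 1 in HFC against LFC and 1 in the product of diet and day, where the brightness class also gave 1. Leaving out a time point gave 0 to 3, 0 to 1 and 0 to 1 in these. The causes of the other moves were not tested.

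Signs turned as follows. Under the brightness class, in HF20 against HFC Elovl1 stood at 0.068, Elovl5 at 0.11 and Fads2 at 0.00087, and in HF5 against HFC Elovl6 at 0.34 and Scd1 at 0.15. Under array weights Elovl3 stood at -0.049 in HF20 against HFC and 0.13 in HF75 against HFC, and in HF5 against HFC Elovl6 at 0.26 and Scd1 at 0.23. Under normexp Scd1 stood at 0.051 in HF5 against HFC, Elovl3, Fads3 and Scd2 at 0.16, -0.054 and -0.021 in HF75 against HFC, and Fads1 and Fads2 at 0.12 and 0.0047 in HFC against LFC. Fads1 was at 0.011 with the scan day and 0.054 with the slide as a block, Fads2 at 0.083 in HF20 against HFC under quantile normalization, Fads3 at -0.092 in HF75 against HFC without the Week 3 array, and the trend of Elovl3 at -0.13 with the scan day. Without a time point in turn, Fads1 in HFC against LFC ran from -0.13 to 0.14, Fads2 in HF20 against HFC from -0.52 to 0.010, Elovl6 and Scd1 in HF5 against HFC from -0.53 to 0.34 and from -0.41 to 0.27, and Fads3 in HF75 against HFC from -0.10 to 0.66. Scd1, Scd2, Elovl6 and Elovl3 in HFC against LFC and Scd1 in HF75 against LFC kept their direction under every alternative run.

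Without the replicate block of time points, limma called 0 genes in HFC against LFC, 2 in HF75 against LFC with Scd1 still passing, and 1312 among the doses with 3 members. Counts of all genes ran over the alternatives from 0 to 7 in HFC against LFC, 0 to 861 in the product of diet and day, 1 to 1701 in the trend over days, 0 to 4 in HFC against LFC at weeks 3 to 18, 0 to 8 in HF5 and in HF75 against LFC, 0 to 47 in HF20 against LFC, 0 to 7, 0 to 5056 and 0 to 1 in HF5, HF20 and HF75 against HFC, and 0 to 7831 in differences among doses. Signal over background limits Elovl3 and Scd3, well above background on 34 and 32 of 38 arrays, and saturation limits Scd1 on 6 and Elovl6 on 2.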
